A study of Mus musculus with 3 samples.

Results

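Regions of Runx1 chromatin immunoprecipitation were examined at 10 mouse genes: the MiT/TFE transcription factor genes Tfeb, Tfe3, Mitf and Tfec, the folliculin genes Flcn, Fnip1 and Fnip2, and the Rag GTPase genes Rragb, Rragc and Rragd. They were taken by gene symbol from the authors' annotated peak tables. The 10 genes stand among 21887 coding genes, and 14 of the 15286 regions in the 3 lists were assigned to them. These were 1 of 451 regions in replicate 1, 2 of 1641 in replicate 2 and 11 of 13194 in replicate 3.

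The study, whose title links Runx1 in microglia to opioid analgesia and withdrawal, sequenced chromatin bound by an antibody to the transcription factor Runx1 (ChIP-seq). All 3 replicates form 1 group, spinal cord cells of male C57BL/6J mice aged 8 to 10 weeks, with no treatment, genotype or second antibody to compare within it. Each was an immunoprecipitation of chromatin pooled from 10 cords, so a replicate holds no spread between animals, and whether replicates drew on the same animals is not stated in the labels. The values describe these 3 libraries, and with 1 group no test between conditions could be made.

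MiT/TFE proteins are basic helix-loop-helix leucine zipper factors that bind E-box elements, among them the extended CLEAR element found in promoters of lysosomal and autophagy genes. When nutrients are plentiful, Rag GTPases on the lysosome recruit the kinase complex mTORC1 and also these factors, which are then phosphorylated and held in the cytoplasm. Folliculin, with its partners encoded by Fnip1 and Fnip2, activates GTP hydrolysis by RagC and RagD and is needed for that step. RagB pairs with RagC or RagD. In other tissues Rragd is itself a known target of MiT/TFE factors.

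The promoter sequences show the E-box CACGTG, which the members' 3 strongest promoter regions of replicate 3 had in common. The distal Mitf region, second in fold among the members there, lies outside the windows searched. The first 3 are the members' promoters that hold the E-box CACGTG, Flcn is the promoter with an assigned region in 2 lists and no E-box, and Rragd is the only member promoter with both a region and the RUNX core TGTGGT. Each is the RefSeq window from 250 bases before to 50 after the start (GRCm38.p6), written along the gene. Capitals mark the E-box CACGTG, the RUNX core as TGTGGT or, on the other strand, as ACCACA, and the cyclic AMP response element (CRE) TGACGTCA. The E-box was not the only shared motif: the GC box GGGCGG, left unmarked, was in windows of 7 members, Rragb, Rragc and Fnip1 among them.
Rragb (chrX:153139708-153140007, plus strand): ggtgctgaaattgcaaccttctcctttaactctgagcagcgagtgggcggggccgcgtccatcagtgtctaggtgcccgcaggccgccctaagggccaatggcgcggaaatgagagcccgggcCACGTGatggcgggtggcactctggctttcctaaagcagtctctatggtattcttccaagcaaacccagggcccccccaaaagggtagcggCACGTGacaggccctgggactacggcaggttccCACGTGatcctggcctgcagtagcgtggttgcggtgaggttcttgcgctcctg
Rragc (chr4:123917183-123917482, plus strand): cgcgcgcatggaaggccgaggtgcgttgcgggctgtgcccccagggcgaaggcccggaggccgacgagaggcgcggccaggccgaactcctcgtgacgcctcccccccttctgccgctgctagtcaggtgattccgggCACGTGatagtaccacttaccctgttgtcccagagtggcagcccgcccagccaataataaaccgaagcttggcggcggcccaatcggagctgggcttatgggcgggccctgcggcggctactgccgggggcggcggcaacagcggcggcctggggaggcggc
Fnip1 (chr11:54437929-54438228, plus strand): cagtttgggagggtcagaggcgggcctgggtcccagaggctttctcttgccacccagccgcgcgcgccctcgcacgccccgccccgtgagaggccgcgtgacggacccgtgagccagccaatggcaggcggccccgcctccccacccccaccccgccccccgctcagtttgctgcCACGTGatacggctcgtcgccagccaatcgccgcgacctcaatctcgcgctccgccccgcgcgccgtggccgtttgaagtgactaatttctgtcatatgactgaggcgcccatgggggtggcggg
Flcn (chr11:59809990-59810289, minus strand): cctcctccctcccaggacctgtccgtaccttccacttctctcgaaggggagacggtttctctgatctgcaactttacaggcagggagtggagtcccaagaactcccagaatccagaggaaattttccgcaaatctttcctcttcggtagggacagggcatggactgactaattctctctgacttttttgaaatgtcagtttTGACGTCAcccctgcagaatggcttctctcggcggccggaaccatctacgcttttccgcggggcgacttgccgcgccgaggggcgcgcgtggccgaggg
Rragd (chr4:32982748-32983047, plus strand): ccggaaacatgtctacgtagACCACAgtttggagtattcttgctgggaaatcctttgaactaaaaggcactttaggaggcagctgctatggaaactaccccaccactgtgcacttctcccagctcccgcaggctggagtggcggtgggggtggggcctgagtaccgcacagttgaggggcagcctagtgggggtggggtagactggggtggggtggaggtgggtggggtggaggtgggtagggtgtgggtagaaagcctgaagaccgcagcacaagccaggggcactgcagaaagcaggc

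Rragb, Rragc and Fnip1 carried the strongest promoter regions among the members in replicate 3, with folds of 7.75, 9.78 and 6.14 over background. Rragb also had a region in replicate 1, and the Rragc start lay beside a region in all 3 lists, although the authors gave 2 of these to a neighbouring RNA gene. Flcn had weaker regions in replicates 2 and 3, Rragd a weak one in replicate 2, and Tfeb 4 regions in replicate 3. The regions assigned to Mitf, in replicate 3, lay beyond the gene. The authors assigned 0 regions to Tfe3, Tfec and Fnip2.

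The fold is the authors' value at a region's strongest summit: the fragments piled up there plus 1, over the local background plus 1. The pileup and background behind each fold were recovered from the deposited fold and p. The intervals given with folds are exact 95% Poisson intervals of the pileup with the background held fixed, so they cover counting error only. Folds rank regions within 1 list and carry no error between animals. In pooled cells, strong binding in few cells and weak binding in many cannot be told apart.

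**Figure D1:**
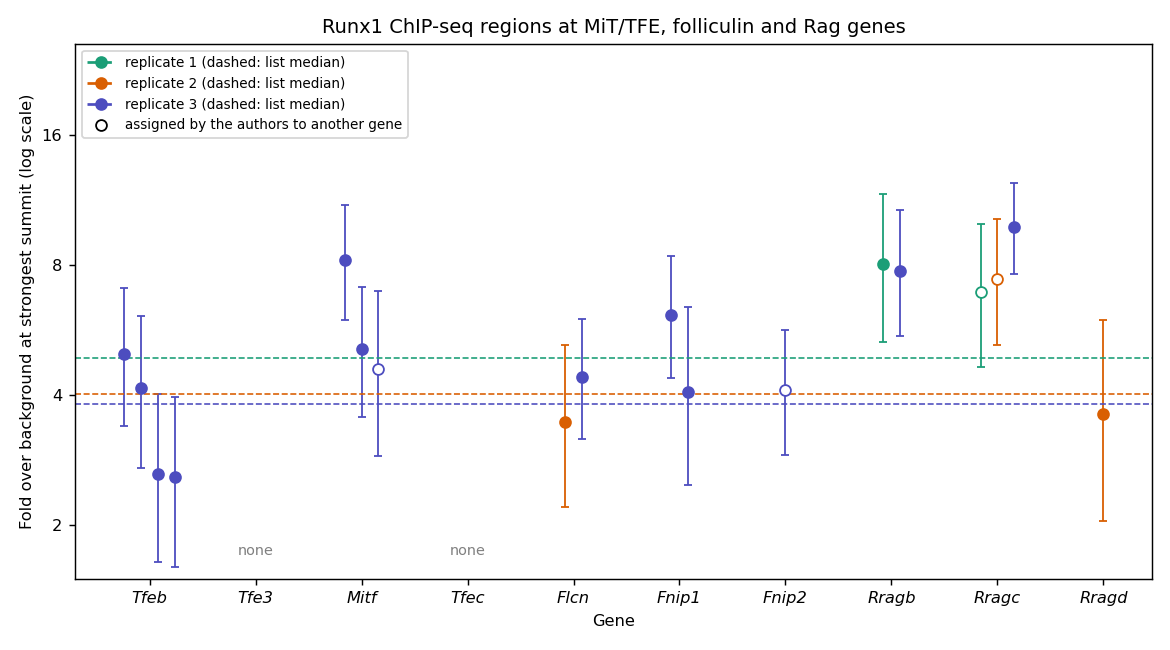
Fold over background (log scale) of each region at the 10 genes, one point per region with its exact 95% Poisson interval, coloured by replicate, with dashed lines at each list's median fold. Open points are regions that lie at a member's start or in its body but were assigned to another gene; Rragb, Rragc and the downstream Mitf region of fold 8.20 stand highest, and Tfe3 and Tfec have no point.

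The lists differed widely in length. The lowest background at a summit was 2.23, 2.67 and 3.13 fragments in replicates 1, 2 and 3, and the number of reads is unknown here. The lowest fold deposited was 3.04, 2.72 and 2.05, and the lowest pileup 13, 13 and 12. Among marker genes fixed for the cells of the cord, replicate 3 had regions at 8 of 8 oligodendrocyte, 4 of 4 neuronal, 2 of 4 astrocyte, 2 of 8 microglial and 0 of 3 endothelial genes. The oligodendrocyte count was 7 in replicate 2 and 0 in replicate 1, and the microglial count was 1 and 0. Of all coding genes, 31.5% had a region in replicate 3, 5.17% in replicate 2 and 1.51% in replicate 1. ChIP gives no expression, so these counts do not say which cells were present, and their part in the members' regions was not tested. The tissue label of replicate 3 holds the antibody in place of the tissue, and replicate 3 supplied 11 of the 14 regions.

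A larger share of the members than of all coding genes had a region in each list. In replicate 1 this was 1 of 10 members (10.0%), Rragb, against 1.51% of all coding genes. In replicate 2 it was 2 of 10 (20.0%), Flcn and Rragd, against 5.17%. In replicate 3 it was 6 of 10 (60.0%), Tfeb, Mitf, Flcn, Fnip1, Rragb and Rragc, against 31.5%. Over the lists together, 7 of 10 members (70.0%) had a region in at least 1, against 31.9%. In at least 2 lists it was 2 of 10 (20.0%), Flcn and Rragb, against 5.43%, and in all 3 lists 0 of 10 against 0.836%. Counted by overlap with a RefSeq promoter window in place of the authors' assignment, the counts were 2 of 10 in replicate 1 (1.33% of coding genes with such a window), 3 of 10 in replicate 2 (3.82%) and 6 of 10 in replicate 3 (28.1%). The members are few, so 1 gene moves a share by 10.0 percentage points. They are also longer than most genes, with a median length of 53964 bases against 17169 over coding genes, and no test of the set was made.

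**Figure D2:**
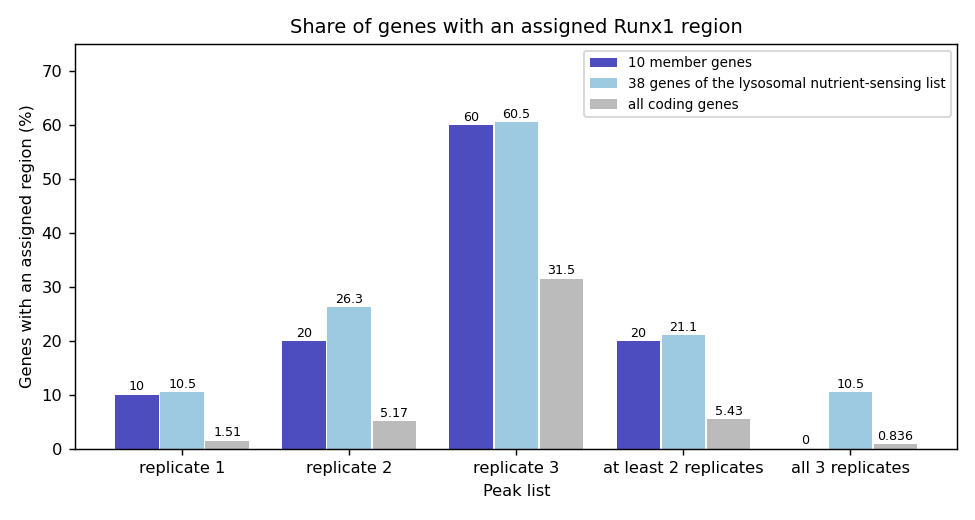
Percentage of genes with at least 1 assigned region in each list, in at least 2 lists and in all 3, for the 10 members, the 38 other genes of the lysosomal nutrient-sensing list and all coding genes. Members and list genes have similar shares in each single list, 60.0% and 60.5% in replicate 3, against 31.5% of coding genes. In all 3 lists the shares are 0 of 10 members and 10.5% of list genes, against 0.836% of coding genes.

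Rragb encodes the GTPase RagB, which recruits mTORC1 to lysosomes. Its region (gene ENSMUSG00000041658) lay at the promoter on chromosome X, at 153139818 to 153140146 in replicate 1 and 153139623 to 153140368 in replicate 3 (GRCm38). The fold was 8.04 (interval 5.31 to 11.7) in replicate 1, from a pileup of 25 over a background of 2.23. It was 7.75 (interval 5.49 to 10.7) in replicate 3, from a pileup of 36 over 3.77. The background of 2.23 was the lowest at a summit of replicate 1. The folds of both lists lay within each other's intervals, which cover counting error only and do not measure agreement between replicates. All 329 bases of the region of replicate 1 lay inside that of replicate 3, and the strongest summits were 29 bases apart, 30 and 1 bases before the authors' transcript start. The region ranked 37 of 451 in replicate 1 and 463 of 13194 in replicate 3, the 92.0 and 96.5 percentiles of fold. The nearest region of replicate 2 was 803 kb from the start. Of the 330 coding genes with a region in replicate 1, 142 (43.0%) had none in replicate 2, so this gap is common.

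The 3 E-boxes of the Rragb promoter, shown in capitals in its sequence, lay within 130 bases. The one nearest the summit was 7 bases from it in replicate 1 and 22 bases in replicate 3, measured from the centre of the motif. The other two lay 26 and 117 bases from the summit of replicate 1. All 3 lay inside both regions. Of 32851 RefSeq promoter windows, 29 (0.0883%) held 3 or more.

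Rragc encodes RagC, the partner of RagA or RagB on which folliculin acts. Its assigned region in replicate 3, on chromosome 4 from 123916851 to 123917738 (gene ENSMUSG00000028646), had the highest fold among all member regions, 9.78 (interval 7.62 to 12.4), from a pileup of 67 over a background of 5.95. It ranked 159 of 13194 regions. Replicates 1 and 2 each had a region at the same place, assigned by the authors to Gm12905, an antisense gene on the opposite strand. The region of replicate 1 (123917106 to 123917373) had a fold of 6.91 (interval 4.64 to 9.95) and ranked 62 of 451. The region of replicate 2 (123917064 to 123917374) had a fold of 7.41 (interval 5.22 to 10.2) and ranked 24 of 1641. Both lay wholly inside the region of replicate 3, and the 3 summits were 12 to 27 bases apart. Both ended short of the RefSeq start of Rragc, by 60 and 59 bases, and covered the E-box that begins 112 bases before it. That E-box lay 68, 95 and 80 bases from the summits of replicates 1, 2 and 3. The ETS core CCGGAA lay 73 bases from the summit of replicate 3. Assigned by overlap with a promoter window, Rragc was thus the 1 member of 10 found in all 3 lists, against 0.783% of the 17492 coding genes with such a window. Which of the 2 starts these regions belong to cannot be told apart.

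Rragd encodes RagD, the relative of RagC. It had a region in replicate 2 alone, on chromosome 4 from 32982766 to 32983127 (gene ENSMUSG00000028278), with a fold of 3.61 (interval 2.04 to 5.98). Its pileup of 13 was the lowest in that list and its −log10 q of 2.19 was close to the deposited limit of 2.00. Replicate 3, the longest list, had its nearest region 47.3 kb from the start. Only 71 of 1131 coding genes with a region in replicate 2 (6.28%) lacked one in replicate 3. The RUNX core in the Rragd sequence began 230 bases before the start, at 32982768. That is just inside the outer edge of the region and 115 bases from its summit.

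Flcn encodes folliculin. Its promoter region on chromosome 11 (gene ENSMUSG00000032633) spanned 59809382 to 59810190 in replicate 2 and 59809492 to 59810394 in replicate 3. The fold was 3.46 (interval 2.20 to 5.21) in replicate 2, from a pileup of 21 over a background of 5.35. It was 4.41 (interval 3.17 to 5.99) in replicate 3, from a pileup of 39 over 8.07. The intervals, which cover counting error only, overlapped, and the folds stood at the 20.0 and 68.1 percentiles of their lists. The regions shared 699 bases, but the strongest summits were 274 bases apart, on either side of the start. Replicate 3 had 3 summits there with folds of 4.11, 3.71 and 4.41, and the middle one lay near the summit of replicate 2 (84 and 89 bases after the authors' start). The CRE of the Flcn promoter, an element bound by CREB-type factors, began 49 bases before the RefSeq start, inside both regions and 158 and 116 bases from the strongest summits. The start of Gm16062 also lay within 1 kb. The nearest region of replicate 1 was 1457 kb from the Flcn start.

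Fnip1 encodes a binding partner of folliculin. It had 2 regions in replicate 3 on chromosome 11 (gene ENSMUSG00000035992) and none in replicates 1 and 2. The first (54437818 to 54439068) was the widest of the member regions at 1251 bases and had 3 summits, the strongest with a fold of 6.14 (interval 4.37 to 8.40). That summit lay 133 bases before the authors' start, 41 bases from the E-box of the promoter and 18 bases from a GC box (GGGCGG). The second (54439446 to 54439890) lay 1246 bases after the start, with a fold of 4.07 (interval 2.47 to 6.39) and 2 summits. Fnip2, its paralogue, had no assigned region. Replicate 3 had a region over the edge of its promoter window, on chromosome 3 from 79567848 to 79568188, with a fold of 4.10 (interval 2.91 to 5.64). Its summit was 397 bases before the Fnip2 start, and the authors assigned it to 4930589L23Rik, a lincRNA gene on the opposite strand.

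**Figure D3:**
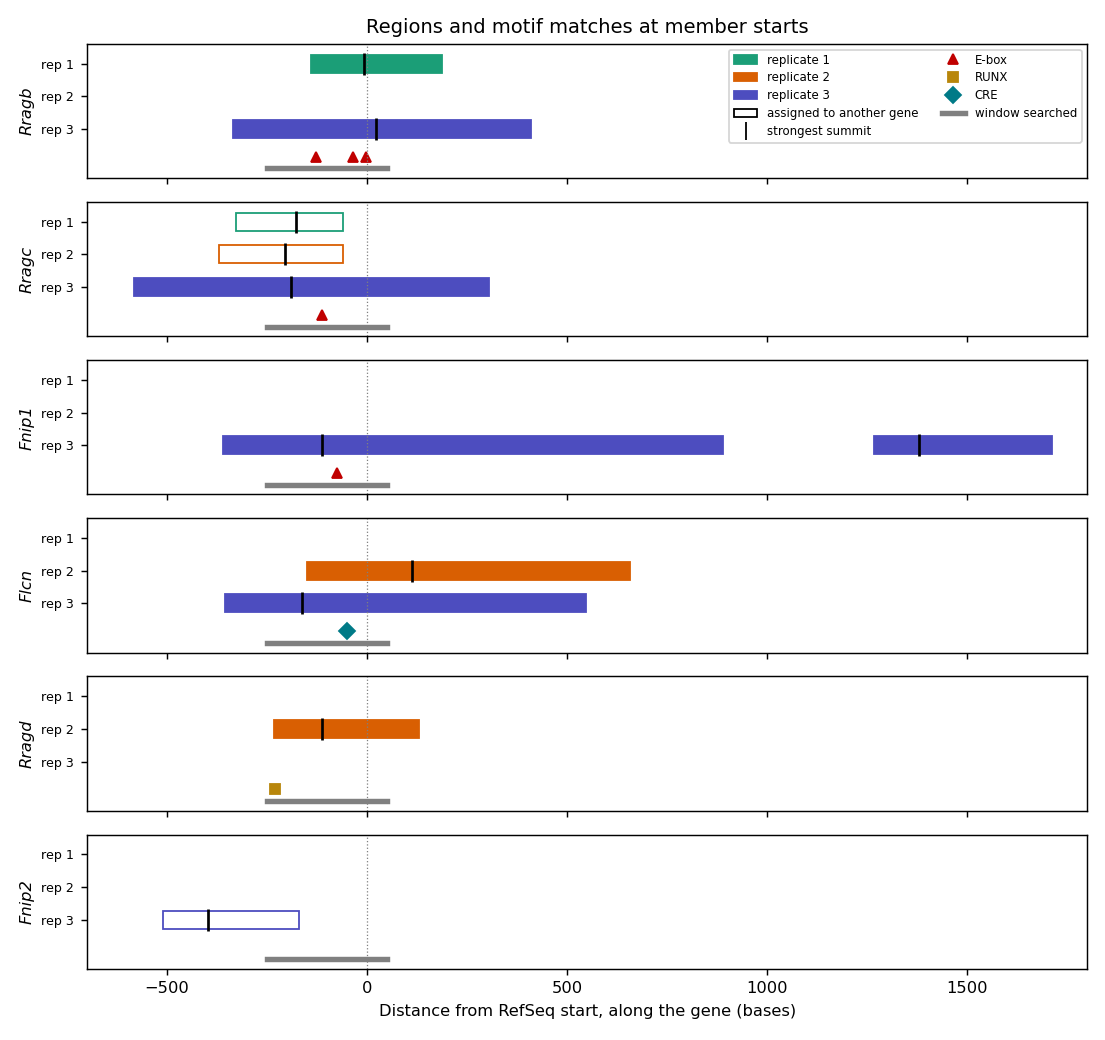
Regions (bars, by replicate) and strongest summits (black ticks) at 6 member starts, in bases from the RefSeq start along the gene, with E-box, RUNX and CRE matches inside the searched window (grey line). Open bars were assigned to another gene; the Rragc bars of replicates 1, 2 and 3 share 1 place, the 3 Rragb E-boxes fall within both of its regions, and the Rragd region is in replicate 2 alone.

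Tfeb encodes the MiT/TFE factor most often tied to lysosome formation. It had 4 regions in replicate 3, a number reached by 1 of 10 members (10.0%) and by 1.82% of all coding genes, or 399 of the 6889 with any region there (5.79%). All 4 were in the promoter class within 1 kb of a start, each at a different transcript of the gene (ENSMUSG00000023990, chromosome 17). The region at the first start (47736995 to 47737506) had a fold of 4.97 (interval 3.38 to 7.06), from a pileup of 29 over a background of 5.04. The region at 47783540 to 47783964 had a fold of 4.14 (interval 2.71 to 6.08), and its summit lay 778 bases after the start of its transcript. The other two, at 47737764 to 47738094 and 47762864 to 47763435, had folds of 2.58 (interval 1.60 to 3.95) and 2.63 (interval 1.64 to 4.03), at the 1.75 and 2.63 percentiles of the list. Their −log10 q values of 2.02 and 2.13 were close to the deposited limit, and their folds were below the lowest fold of the lists of replicates 1 and 2. Of the 3 RefSeq starts of Tfeb, the windows of the first and the second were overlapped. The regions nearest to the first start in replicates 1 and 2 were 5952 and 1091 kb away.

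Mitf encodes the founding member of the family, known from melanocytes and osteoclasts. Its 2 regions in replicate 3 lay on chromosome 6 beyond the gene, in the authors' distal intergenic class (gene ENSMUSG00000035158). The region at 98048886 to 98049447 had a fold of 8.20 (interval 5.96 to 11.0), from a pileup of 42 over a background of 4.25, and ranked 369 of 13194. The region at 98046629 to 98047323 had a fold of 5.11 (interval 3.56 to 7.11). They were 1562 bases apart. The region of fold 8.20 lay 27.5 kb past the RefSeq end of Mitf and 189 kb before the next coding gene, Gm765. For the region of fold 5.11 these distances were 25.3 and 191 kb. Assignment to Mitf therefore rests on it being the nearest gene. None of the 3 RefSeq starts of Mitf was overlapped in any list. An intronic region of replicate 3 within Mitf (97883512 to 97884038), with a fold of 4.60 (interval 2.89 to 6.98), was assigned to the pseudogene Gm15531.

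**Figure D4:**
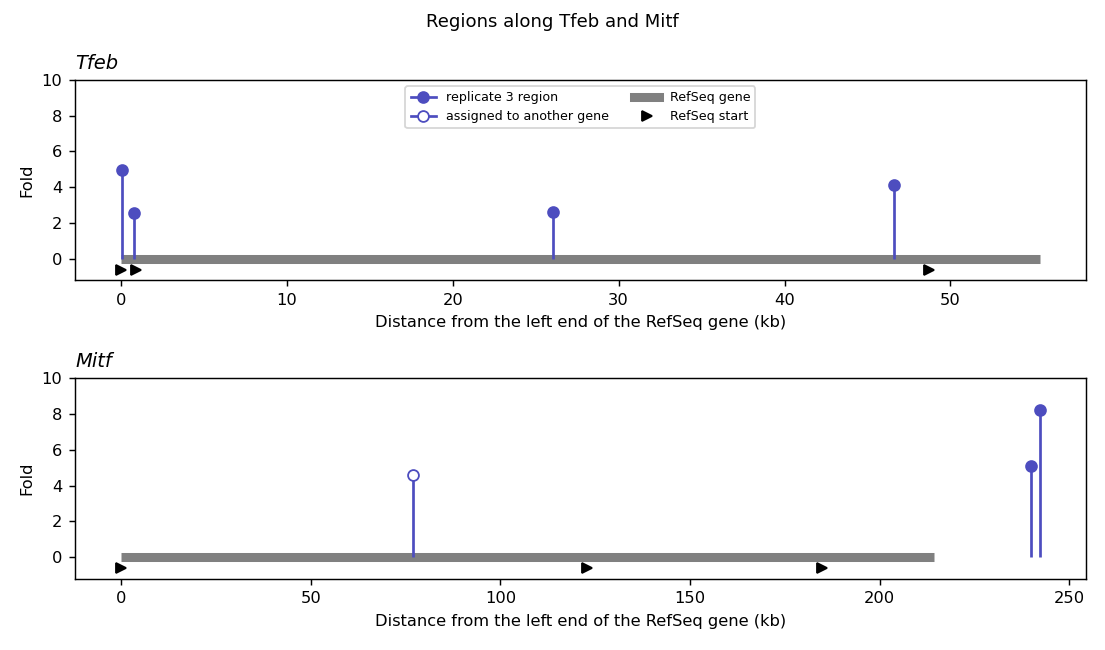
Fold over background (height) of the replicate 3 regions along Tfeb and Mitf, in kb from the left end of the RefSeq gene (grey bar), with RefSeq starts as arrowheads. The 4 Tfeb regions are spread along the gene with folds of 2.58 to 4.97, while the 2 assigned Mitf regions, at 5.11 and 8.20, stand past the gene's right end.

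Tfe3 and Tfec, the remaining factors of the family, were the 2 members with no region at a start or in the gene body under any assignment. Tfe3 is broadly expressed in mammals and Tfec is best known from macrophages. The region nearest to a Tfe3 start in replicate 3 was 25.4 kb away and assigned to Gripap1. The nearest to the Tfec start was 97.2 kb away and intergenic. A gene without a region was not shown to lack binding.

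As a group, the 11 regions of replicate 3 had a median fold of 4.97 (range 2.58 to 9.78) against 3.81 over the whole list, and 9 of the 11 were above that median. Their median width was 572 bases against 470 bases, and 8 of 11 (72.7%) were in the promoter class against 62.6%. The 2 regions of replicate 2 had a median fold of 3.53 against 4.01, both below the median of the list. The single region of replicate 1 had a fold of 8.04 against 4.86. These counts leave out the regions assigned to other genes. Those over the Rragc promoter stood at the 86.5 percentile in replicate 1 and the 98.6 percentile in replicate 2. In replicate 3 the region at the Fnip2 window stood at the 60.0 percentile and the intronic Mitf region at the 72.1 percentile. The counts include the 2 Tfeb regions at the low end of replicate 3.

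Motif matches were counted in the 15 RefSeq promoter windows of the 10 genes, all of which matched the table. Mitf and Tfeb had 3 windows each and Tfe3 had 2. Both strands were searched. The E-box CACGTG was in 3 of 15 windows, those of Rragb, Rragc and Fnip1, against 7.15% of all 32851 windows. These were the 3 highest folds at promoters among the 5 members with a promoter region in replicate 3, above Tfeb (4.97) and Flcn (4.41). Each of the 3 also held TCACGTG on one strand, found in 3.77% of all windows, and none held the full palindrome TCACGTGA (0.974%). The RUNX core TGTGGT was in 4 windows, of Mitf, Rragd, Tfe3 and Tfec, against 16.8%, and of these the Rragd window alone was overlapped by a region. TGTGGTT, which contains it, was in 2 windows (Mitf and Tfec) against 5.27%. The GC box GGGCGG was in 9 windows against 35.7%, from 7 genes (Fnip1, Fnip2, Mitf, Rragb, Rragc, Tfe3 and Tfeb). The ETS core CCGGAA was in 3 (Flcn, Rragc and Rragd) against 14.9%, and the CRE TGACGTCA in 2 (Flcn and Mitf) against 1.79%. A match is a description of the letters, and a window without one may still be bound.

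The E-box was also counted over all promoter windows under a region, where its share was highest in replicate 1. Among windows overlapped by a region, 44.3% of 300 held CACGTG in replicate 1, 21.4% of 877 in replicate 2 and 12.9% of 6454 in replicate 3. Overlapped windows were richer in G and C, with a median of 65.7%, 62.0% and 62.0% against 52.7% over all windows. Among all 8101 windows with at least 62.0% G and C, the median of the windows overlapped in replicate 3, 10.9% held CACGTG. The median G and C of these 8101 windows was 68.0%, above that of the overlapped windows, so they were not matched to them. The RUNX core was in 10.0%, 10.1% and 10.9% of overlapped windows, against 8.84% of those rich in G and C and 16.8% of all windows. Windows of one gene can overlap, and the part of base composition in these shares was not tested.

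**Figure D5:**
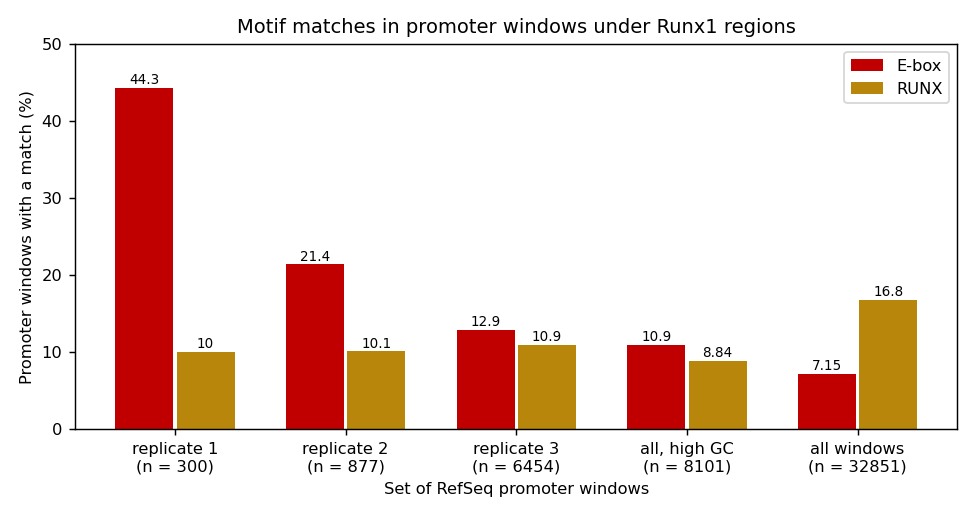
Percentage of RefSeq promoter windows with the E-box CACGTG or the RUNX core TGTGGT, for windows overlapped by a region of each replicate, all windows with at least 62.0% G and C (high GC), and all windows. The E-box share is 44.3% in replicate 1 and 7.15% over all windows, while the RUNX share is 10.0% to 10.9% in the replicates and 16.8% over all windows.

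Other genes of lysosomal nutrient sensing had regions at a similar rate in each single list. Of 38 such genes, 4 (10.5%) had a region in replicate 1, 10 (26.3%) in replicate 2, 23 (60.5%) in replicate 3 and 8 (21.1%) in at least 2 lists. The 4 found in all lists (10.5%, against 0 of 10 members and 0.836% of coding genes) were Mcoln1, Lamtor1, Gsk3b and Tsc1. Lamtor1, the Ragulator subunit that anchors Rag proteins to the lysosome, had folds of 6.48, 4.77 and 10.4 in replicates 1, 2 and 3. Mcoln1, the lysosomal calcium channel, had 9.22, 8.03 and 10.4. Gsk3b, a kinase that phosphorylates MiT/TFE factors, had 5.78, 6.17 and 8.99, and Tsc1, a subunit of the complex that restrains mTORC1, had 5.41, 4.10 and 4.77. Rheb, the GTPase that activates mTORC1, had 5.75 and 6.22 in replicates 2 and 3, and Akt1s1, an mTORC1 component, had 4.00 and 5.68. Ywhag, a 14-3-3 protein, had 3.96 and 4.56, and Nprl3, a GATOR1 subunit, 3.15 and 4.22. Rraga, the near twin of Rragb, had a single region in replicate 3 with a fold of 3.48. In replicate 3 the median of the best folds was 6.95 over the 6 members and 4.73 over the 23 list genes, against 4.04 over 6889 coding genes. A best fold is the highest over a gene's regions, so genes with more regions have more chances of a high one. The value for Mitf, 8.20, is from a region beyond the gene. The E-box was in a window of 5 list genes, Mcoln1, Lamtor1, Rheb, Tbc1d7 and Lamtor4. These were 5 of the 22 list genes with a region in any list and a window (22.7%), and the other 17, Gsk3b and Tsc1 among them, lacked it. Of the 10 list genes with a window and no region, 0 held it, a count too small to read against the 8.91% of all 17492 coding genes with a window that held it.

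Genes nearest in fold were found for the 2 members with assigned regions in 2 lists. For Flcn, among 876 other coding genes with regions in replicates 2 and 3 alone, the closest were Dut (3.40 and 4.34), Med28 (3.40 and 4.40) and Ssb (3.40 and 4.36), each within 0.03 on the log2 scale in both lists. For Rragb, among 123 other genes with regions in replicates 1 and 3 alone, the closest included Bax (7.18 and 9.48) and Sptan1 (6.75 and 6.31), within 0.29 and 0.30. Likeness was the largest log2 difference of fold over 2 lists, and it says nothing of shared function.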

How the data were processed

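Runx1 ChIP-seq of mouse spinal cord was deposited as 3 peak lists, 1 per replicate. Per the submitters' processing notes, peak calling used MACS2 2.1.2 and the build was GRCm38; Bowtie2, SAMtools 1.9, FastQC, Picard 2.18.26 and Trimmomatic 0.38 are also named. Their settings and any control library were not stated in the labels. The columns deposited by the authors for each summit are a score, −log10 p, −log10 q and the ratio to background called fold here. The authors' annotated tables add the class of location and the assigned gene. The read depth is unknown.

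Regions with several summits took the fold of the strongest. Starts are counted from 1. Pileup and background were solved from fold and p under a Poisson model, within 0.001 in −log10 p for 100% of summits, and 100% of 500 simulated pileups per list were recovered. Coding symbols matched the RefSeq table (GRCm38.p6) in 98.8%, 99.7% and 99.1% of cases in replicates 1, 2 and 3. Promoter windows are those of RefSeq. Overlap means at least 1 bp. Named genes were all members, up to 8 list genes with regions in the most lists, and the 3 genes nearest in fold to members with regions in at least 2 lists; other list genes named for E-boxes, and Rraga, were chosen after their values were seen. Some genes that these rules name are not reported here. The comparison with windows rich in G and C was added after the data were seen; its limit was first 60% and was then set to the median of 62.0%. Members and lists were chosen with earlier results of these data known. The tools were pandas 2.3.3, numpy 2.4.6, matplotlib 3.10.9 and scipy 1.17.1 under Python 3.11.15.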

Additional observations from a re-analysis of the deposited data

How the results depend on the processing

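The member counts rest on few regions, and those of replicate 2 were the least firm. At a q of 1e-05 or lower, and likewise at a fold of at least 5, 0 members had a region in replicate 2 and 1 in at least 2 lists. At a fold of at least 5, replicate 3 kept 4 of its 6 members (Fnip1, Mitf, Rragb and Rragc). At the p limit of replicate 1, 1 member had a region in replicate 2 (Flcn). With equal numbers of regions in each list, 0 members had a region in replicate 2, 1 in replicate 3 (Rragc) and 0 in at least 2 lists. That count for replicate 3 does not hold for a ranking by fold. By fold a Mitf region stood at 369 there, which is also within 451, the length of the shortest list. Where a gene took every region in its RefSeq body or 1 kb around it, and likewise by promoter window (an alternative chosen after seeing the data), 2 members had a region in replicate 1 and 1 in all 3 lists, since the regions beside Rragc then counted. With 1 replicate left out, both remaining lists held a region for 0 to 1 members (0 without replicate 3). Of the 2 members with overlapping regions, 1 kept the overlap when 50% of both regions had to be shared (Flcn) and 1 with strongest summits within 200 bp (Rragb). With each motif 1 base shorter, matches were in 3 of 15 windows for CLEAR-like (3.77% of all windows) and 7 for RUNX (55.9%). The longer RUNX was then in 4 (16.8%) and the ETS core in 9 (34%). The shorter RUNX core was thus common over all windows, not only in those of members. With the limit on G and C at 60%, the first one tried, 9690 windows passed, of which 10.8% held CACGTG, 9.56% TGTGGT and 1.71% TCACGTGA, against 10.9%, 8.84% and 1.72% at 62.0%. Over all alternatives together, 33 counts and medians did not move past the limits set and 21 did. The fall from 6 to 4 members in replicate 3 stands among the 33. Apart from the promoter windows, shares of coding genes under these alternatives are not given here, so these member counts have no background beside them. No paired analysis was possible because the labels give 1 group. Depth limits what can be seen: a gene absent from a list may have had too few fragments to be called.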

Other observations

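Promoter windows with the E-box were overlapped by regions more often than those without. Of 2349 windows that hold CACGTG, 5.66% were overlapped in replicate 1, 8.00% in replicate 2 and 35.5% in replicate 3, against 0.548%, 2.26% and 18.4% of the 30502 windows that lack it. Windows with and without it were not matched for G and C. Overlapped windows with the E-box had a median fold of 5.76 in replicate 1 (133 windows), 4.19 in replicate 2 (188) and 4.36 in replicate 3 (834), against 4.65, 4.08 and 3.95 without it. For the RUNX core the medians were 5.29, 4.08 and 3.97 with it, against 4.97, 4.10 and 4.01 without it.

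The palindrome TCACGTGA was in 20.3% of the windows overlapped in replicate 1, 7.87% in replicate 2 and 3.19% in replicate 3, against 1.72% of windows with at least 62.0% G and C and 0.974% of all windows. Of the 173 windows overlapped in all 3 replicates, 46.2% held CACGTG and 12.7% held TGTGGT. Windows overlapped in replicate 3 and not in replicates 1 and 2 numbered 5517, and 10.8% held CACGTG. Of all windows with at least 62.0% G and C, 10.9% held it. Those windows include overlapped ones and were not matched to the 5517, with a median G and C of 68.0% against 62.0%. No test was made of these shares, and their cause was not tested.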
